A study of Homo sapiens with 12 samples.

Results

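The regions described here are the control H3K27ac peaks on chromosomes 1 to 22 and X that carried total and acetylated H2A.Z and had no H3K4me1 call. They were chosen by the control lists: an H3K27ac peak at least 500 bp wide was a member if it shared 1 bp or more with a control H2A.Z peak and with a control peak of acetylated H2A.Z (H2A.Zac), each at least 500 bp wide, and with no control H3K4me1 peak of that width. Of 25333 H3K27ac peaks of this width (64460 at any width), 10337 lay on H2A.Z, 10180 of those also on H2A.Zac, and 8548 of those off H3K4me1. The members are thus 33.7% of the wide H3K27ac peaks. They were 500 to 11966 bp wide, with a median of 1200 bp, and covered 11.74 Mb.

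The cells were Huh7, a human hepatocellular carcinoma line, and in both groups the endogenous VPS72 gene carried a knocked-in FLAG tag at its stop codon, in colonies that had survived blasticidin selection. The overexpression group was infected for 24 h with a lentivirus named lenti-VPS72-FLAG in the titles, and the control group with a lentivirus named lenti-HA in the titles and an empty vector in the study design. The FLAG antibody therefore read the endogenous tagged VPS72 in the control, and the endogenous and the viral tagged protein together with overexpression. The genotype labels of the overexpression libraries other than input name VPS73 to VPS77 in place of VPS72, and the titles were followed. Each group had 1 library per target (H3K27ac, H3K4me1, H2A.Z, H2A.Zac and FLAG) and 1 of input, 12 libraries in all, so no difference between the groups has a replicate check or a test.

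H2A.Z is a variant of histone H2A that is found beside transcription start sites and at enhancers. The SRCAP and TIP60 complexes exchange it into nucleosomes, and TIP60 is an acetyltransferase. VPS72, also called YL1, is the H2A.Z-binding subunit of both complexes. H3K27ac marks active promoters and enhancers, and H3K4me1 is typical of enhancers and of the flanks of promoters, where the start site itself carries H3K4me3. H3K27ac without H3K4me1 is therefore common at active promoters. H3K4me3 and gene annotation of the genome build of these lists were not used here, so no member was called a promoter.

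The deposited lists held between 57951 peaks (overexpression H2A.Z) and 551907 peaks (overexpression FLAG) on these chromosomes. They appear to have been kept at an unadjusted p of 0.05, a threshold that the sources used here did not give, and are long and permissive. For this reason a peak counted as called only at a width of 500 bp or more, unless any width is stated. Whole reads at a summit were worked back from its deposited fold and p, and summit height is given as a multiple of the genome average of the library. That average was 0.330 reads with overexpression and 0.457 reads in the control for FLAG, and 1.40 to 2.24 reads for the 8 histone lists. Deposited input peaks touched 3 members with overexpression and 0 in the control. Intervals in brackets are Wilson 95% intervals of a share of regions, and they cover counting error only, since the regions of a library are not replicates. In a mixed culture, fewer cells with a mark and less of it per cell cannot be told apart.

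At the members the 4 control histone lists chose the regions, so their values are a description. H2A.Zac had the highest control summits, with a median of 39 reads and 20.1 times the genome average, and H3K27ac followed with 28 reads and 14.95 times. Control H2A.Z was low, at a median of 11 reads and 7.88 times the average. H3K4me1 was not wholly missing: 1249 members (14.6%) held a control H3K4me1 peak under 500 bp, with a median of 9 reads, against 22.7% of all wide H3K27ac peaks without a wider one. Where H2A.Z was called on a wide H3K27ac peak, its acetylated form nearly always was too, and 157 wide H3K27ac peaks had H2A.Z without H2A.Zac. At the width limit itself, the 3 members of 500 bp had 17, 12 and 11 control H3K27ac reads, and the 3 listed peaks of 499 bp that otherwise met the rule had 19, 18 and 18. There were 2347 narrower H3K27ac peaks that otherwise met the rule, 749 of them at least 400 bp wide, beside 767 members under 600 bp.

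**Figure D1:**
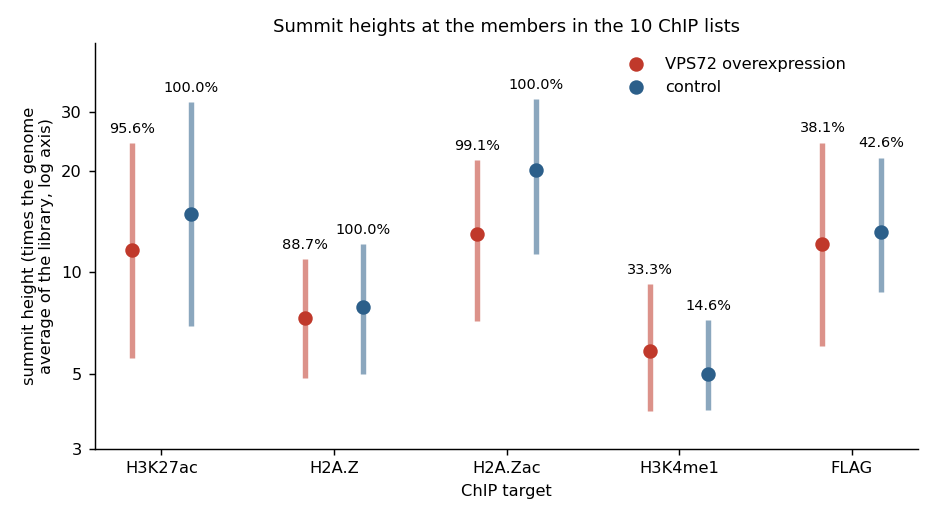
Summit height at the members in each of the 10 ChIP lists, as a multiple of the genome average of the library on a log axis. Points are medians over the members with a peak of any width, bars run from the 10th to the 90th percentile, and the percentage above each bar is the share of members with such a peak. Acetylated H2A.Z had medians of 12.97 with overexpression and 20.1 in the control, and H3K4me1 was the lowest mark in both groups.

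Both acetylation marks stayed called at most members. With overexpression, 94.6% of members (94.1% to 95.03%) had H2A.Zac, against 55.1% of all wide control H3K27ac peaks, and 85.9% (85.2% to 86.6%) had H3K27ac, against 73.1%. At any width the shares were 99.1% and 95.6%, against 68.0% and 86.4% of all wide peaks. Of 5 equal groups of wide H3K27ac peaks by control q, the weakest held 623 members and the strongest 2711. In the weakest, overexpression H3K27ac was called at 34.7% of members and 33.95% of regions with H2A.Zac but neither H2A.Z nor control H3K4me1. In the strongest the shares were 99.8% and 99.7%. For regions with none of these 3 marks in the control they were 19.8% and 99.1%. By the rule all members had H2A.Zac in the control, where 70.8% of all wide H3K27ac peaks did. The summits were nevertheless lower relative to the genome average. For H2A.Zac the median was 29 reads and 12.97 times the average with overexpression and 39 reads and 20.1 times in the control, and the median ratio of overexpression over control at the same member was 0.647. Only 2.35% of members had a higher H2A.Zac summit with overexpression, against 3.93% of all wide H3K27ac peaks with a peak in both lists. For H3K27ac the median was 25 reads and 11.7 times the average with overexpression and 28 reads and 14.95 times in the control, with a median ratio of 0.755. The H3K27ac summit was higher with overexpression at 11.4% of members, against 14.0% of all.

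These lower heights were not particular to the members. Over all wide H3K27ac peaks the median ratios were 0.651 for H2A.Zac and 0.763 for H3K27ac. The choice of members in the control could itself favour high control values, so the same rule was applied to the overexpression lists. At the 4471 regions chosen there, the ratios were 0.651 and 0.753. With 1 library per group, a difference in the marks and a difference between immunoprecipitations cannot be told apart.

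The H2A.Z call was the condition that failed most often. With overexpression 60.3% of members (59.3% to 61.4%) had H2A.Z at least 500 bp wide, against 25.9% of all wide H3K27ac peaks, and 88.7% had it at any width, against 46.6%. By the rule all members had wide H2A.Z in the control, where 40.8% of all wide H3K27ac peaks did. The overexpression H2A.Z list was the shorter one, with 57951 peaks against 182213 in the control. The summit values were closer than the calls. Members with an overexpression H2A.Z peak had a median of 12 reads there (7.32 times the genome average), and all members had a median of 11 reads in the control (7.88 times). Where both lists had a peak the median ratio was 0.917, and 35.0% of members were higher with overexpression, against 38.1% of all wide H3K27ac peaks. At the regions chosen from the overexpression lists the median ratio was 0.937.

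Whether the call recurred followed the number of control H2A.Z reads. Among the 1031 members with 4 to 7 control reads, 24.2% (21.7% to 26.96%) had overexpression H2A.Z, and among the 248 with 21 to 77 reads, 96.4% (93.2% to 98.1%) did. H2A.Zac was less graded, from 82.9% to 99.6% over the same groups. The H2A.Z call was also more frequent where control VPS72-FLAG was called, at 70.0% of the 1889 members with FLAG (67.9% to 72.01%) and 57.6% of the 6659 without (56.4% to 58.8%). Members with FLAG had slightly higher control H2A.Z, with median heights of 8.59 and 7.88. They were also wider, at a median of 1313 bp against 1175 bp, and width was not matched here. The same shares over all wide H3K27ac peaks were not taken. Within groups of like control reads the gap was smaller, though members with FLAG were higher in every group. At 4 to 7 reads the call recurred at 32.1% of members with FLAG (24.9% to 40.3%) and 23.04% of those without (20.4% to 25.9%). At 12 to 14 reads it recurred at 76.1% with FLAG (72.1% to 79.6%) and 72.2% without (69.9% to 74.4%). The intervals did not overlap at 8 to 9 reads, with 50.3% (44.9% to 55.7%) and 40.9% (38.4% to 43.4%). They were also apart at 15 to 20 reads, with 90.5% (87.3% to 92.9%) and 84.1% (81.7% to 86.2%).

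**Figure D2:**
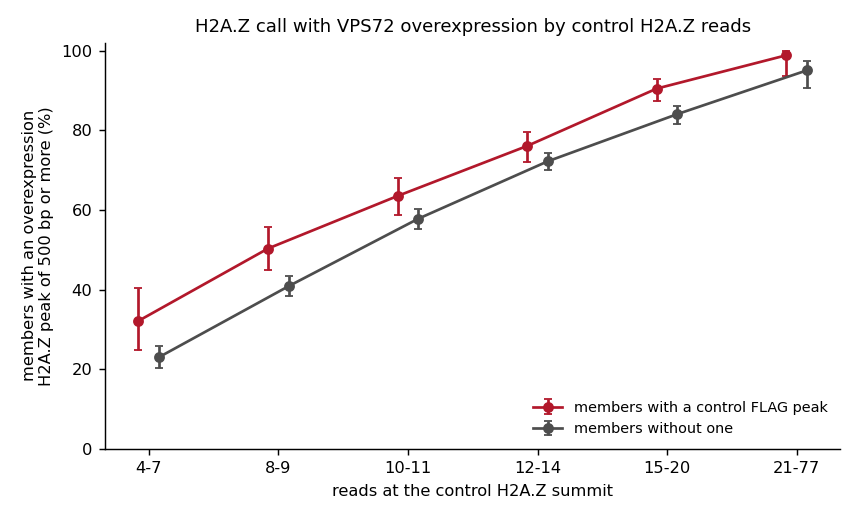
Share of members with an overexpression H2A.Z peak of 500 bp or more, by the number of reads at the control H2A.Z summit, for members with and without a control FLAG peak. Points are shares with Wilson 95% intervals, and both lines climb with the reads, from 32.1% to 98.8% with FLAG and from 23.04% to 95.1% without.

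H3K4me1 was called with overexpression at 1877 members, or 21.96% (21.1% to 22.9%). Because the rule removed every region with control H3K4me1, any call is a gain by the choice of members, and its share has to be read against the 34.0% of all wide H3K27ac peaks without control H3K4me1 that had one, and the 51.7% of all wide H3K27ac peaks. H3K4me1 was called at 36.9% (35.6% to 38.2%) of the 5136 regions with H2A.Zac but neither H2A.Z nor control H3K4me1, and at 55.1% (53.6% to 56.6%) of the 4181 regions with none of the 3. At any width 33.3% of members had an overexpression H3K4me1 peak, against 44.5% of all wide H3K27ac peaks without control H3K4me1. The overexpression H3K4me1 list was the longer one, with 74109 wide peaks against 31560 in the control. Where 50% of the H3K27ac peak had to be covered by each mark, 5.98% of the 6861 members then chosen had overexpression H3K4me1 over that share, against 23.1% of all wide H3K27ac peaks that control H3K4me1 covered by less than 50%. At the 972 members with a peak of any width in both lists, the median ratio of summit heights was 1.27 and 76.7% were higher with overexpression. The share over all wide H3K27ac peaks was 84.6%, and their median ratio was 1.31. The rule kept the members' control H3K4me1 peaks under 500 bp, which favours a high ratio. The mirrored rule kept overexpression H3K4me1 peaks under 500 bp, which favours the opposite. At the 142 regions chosen from the overexpression lists with a peak in both, the median ratio was 0.996 and 48.6% were higher with overexpression. At the 177 members with a peak in both that overlapped a region chosen there, the median ratio was 1.11 and 57.6% were higher.

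Around the members, overexpression H3K4me1 covered the flanks more often than the centre. A central low point is favoured by the rule, which removed regions with control H3K4me1, so the shape is a description. At the H3K27ac summit, 4.21% of members were covered by an overexpression H3K4me1 peak. At 1000 bp to either side 16.4% were covered, and at 5000 bp 6.53% on the left and 6.25% on the right. The control, empty at the summit by the rule, had shoulders of 4.001% and 3.62% at 1500 bp. Of the 1877 members with an overexpression call, the peak covered the H3K27ac summit in 17.4% (15.7% to 19.1%). The H3K4me1 summit lay a median of 892 bp from the H3K27ac summit, and inside the member in 30.7%. The 1632 regions with H3K4me1 in the control that otherwise met the rule were chosen to have it, and had overexpression H3K4me1 over 43.7% of them at the summit and over 57.2% and 55.4% at 1000 bp on the left and right.

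**Figure D3:**
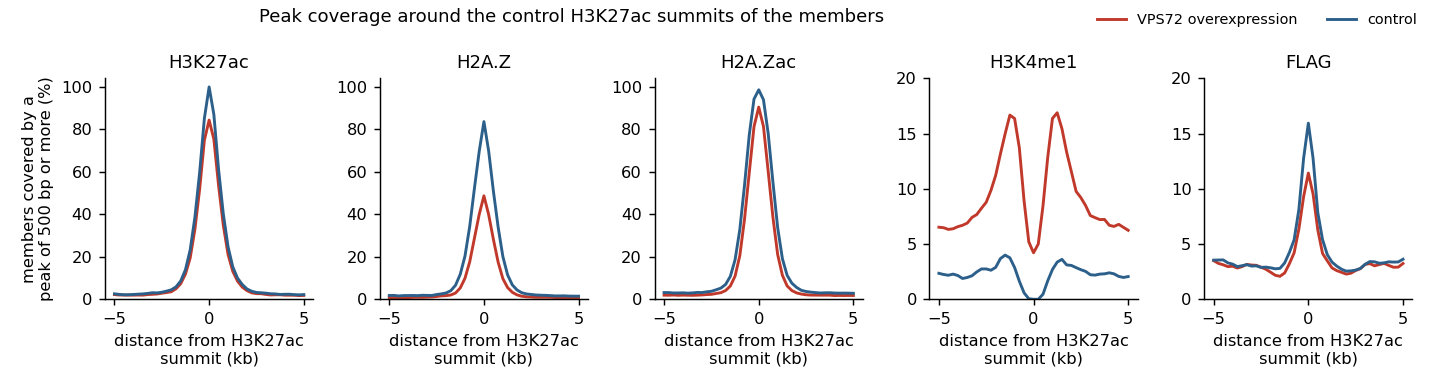
Share of the 8548 members covered by a peak of 500 bp or more at each position around the control H3K27ac summit, for each ChIP target with overexpression and in the control. The H3K4me1 and FLAG panels have a shorter vertical axis. H3K27ac, H2A.Z, H2A.Zac and FLAG were centred on the summit, while overexpression H3K4me1 had its low point there, at 4.21%, and its shoulders highest at 1250 bp, with 16.7% on the left and 16.9% on the right.

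Gains were most frequent where the control already had H3K4me1 nearby. Among the 1249 members with a narrow control H3K4me1 peak, 60.05% (57.3% to 62.7%) had overexpression H3K4me1, and among the 7299 with none, 15.4% (14.6% to 16.3%). With distance from the member's edge to the nearest wide control H3K4me1 peak, the share went down in steps, from 47.03% of members within 500 bp through 37.1%, 32.9%, 30.5% and 24.4% to 13.07% beyond 20000 bp. The members were below both comparison classes in every distance group. Within 500 bp the class without H2A.Z had 68.5% and the class with none of the 3 had 83.6%, and beyond 20000 bp they had 20.9% and 31.4%. By control H3K27ac strength, the gap to the regions without H2A.Z was seen in all groups but the strongest. In the weakest of 5 equal groups of all wide H3K27ac peaks by q, 32.7% of members (29.2% to 36.5%) and 54.9% of regions without H2A.Z (51.1% to 58.7%) had overexpression H3K4me1. In the groups between, the shares were 24.5% and 50.8%, then 21.1% and 37.4%, then 16.8% and 28.3%. In the strongest group the shares were 23.5% (21.9% to 25.1%) and 24.1% (21.8% to 26.6%), and their intervals overlapped.

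**Figure D4:**
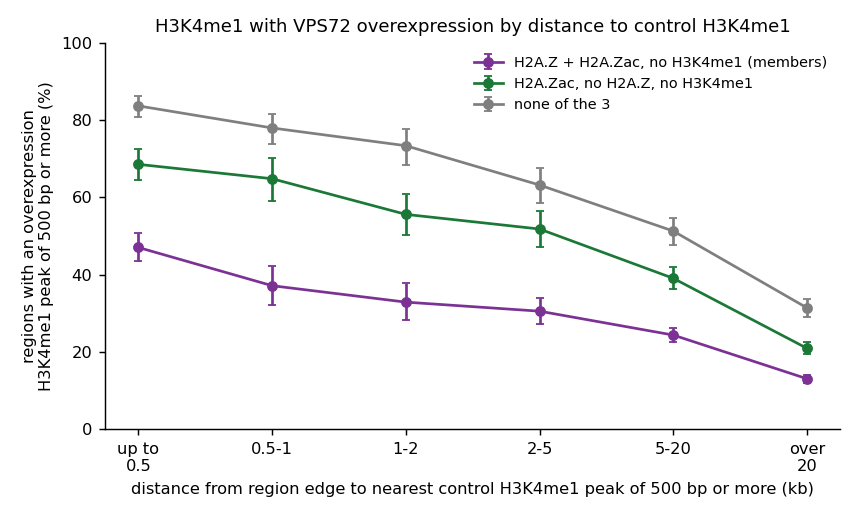
Share of regions with an overexpression H3K4me1 peak of 500 bp or more, by distance in kb from the edge of the region to the nearest wide control H3K4me1 peak, for the members and for 2 other classes of wide control H3K27ac peaks without control H3K4me1. Points are shares with Wilson 95% intervals. The members lay below both other classes at every distance, at 47.03% within 500 bp and 13.07% beyond 20000 bp.

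Members with an overexpression H3K4me1 call had the other histone marks called somewhat less often with overexpression. H3K27ac was called at 82.95% of those with H3K4me1 (81.2% to 84.6%) and 86.7% of those without (85.9% to 87.5%). H2A.Zac was called at 90.1% (88.7% to 91.4%) and 95.8% (95.3% to 96.3%), and H2A.Z at 54.02% (51.8% to 56.3%) and 62.1% (60.95% to 63.3%). The intervals did not overlap for any of these 3 marks. Control FLAG was called at 21.2% (19.4% to 23.1%) and 22.4% (21.4% to 23.4%), with overlapping intervals. Their median control heights were 14.4 and 14.95 for H3K27ac, 7.88 and 7.88 for H2A.Z and 19.1 and 20.1 for H2A.Zac. The 10th percentiles were lower with H3K4me1 for H2A.Zac (9.28 against 11.85) and H3K27ac (6.41 against 6.94), and the same for H2A.Z (5.01). Members with H3K4me1 were wider, at a median of 1341 bp against 1162 bp.

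VPS72-FLAG was called at a minority of members, yet more often than at other H3K27ac peaks. With overexpression 17.1% of members (16.3% to 17.9%) had a FLAG peak, against 9.64% of all wide H3K27ac peaks, and in the control 22.1% (21.2% to 22.99%) did, against 12.4%. At any width the shares were 38.1% and 42.6%, against 24.3% and 24.2%. Where 50% of the H3K27ac peak had to be covered, the shares were 8.28% with overexpression and 12.4% in the control, against 3.79% and 5.52%. At a width of 300 bp, overexpression FLAG was called at 26.6% of members, against 13.5% of all H3K27ac peaks of that width. The reads behind these calls were few: a median of 4 with overexpression (12.1 times the genome average) and 6 in the control (13.1 times). At the 2436 members with a FLAG peak of any width in both lists the median ratio was 1.04, and 56.3% were higher with overexpression, against 55.2% of all wide H3K27ac peaks. FLAG ChIP from cells without the tag was not analysed here, so how much of the FLAG signal was nonspecific was not tested.

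The 2 FLAG lists overlapped at the members. Both had a call at 915 members, or 10.7% (10.07% to 11.4%), against 5.94% of all wide H3K27ac peaks. Overexpression FLAG was called at 48.4% of members with control FLAG (46.2% to 50.7%) and at 8.15% of those without (7.52% to 8.84%). Of the 3132 wide H3K27ac peaks with control FLAG, 1505 had both calls. The recurrence where control FLAG was called was thus not particular to the members. FLAG coverage was highest at the H3K27ac summit, with 11.4% of members with overexpression and 15.95% in the control, and had dropped to 2.28% and 2.55% at 2000 bp to the right. The median distance of the FLAG summit from the H3K27ac summit was 283.5 bp with overexpression, against 264 bp in the control, much as the H2A.Z summit did (247 bp and 263 bp), and farther than the H2A.Zac summit (129 bp and 126 bp). Control FLAG was more frequent with more control H2A.Z, at 13.3% of members with 4 to 7 H2A.Z reads and 34.7% of those with 21 to 77.

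Beside the 22.1% of members, control FLAG was called at 18.3% of the regions with control H3K4me1, 10.3% of those without H2A.Z and 4.57% of those with none of the 3. Width did not remove the gap to the class without H2A.Z. At widths of 500 to 800 bp, control FLAG was called at 19.2% of members (17.6% to 20.95%) and 7.48% of that class (6.32% to 8.83%), and at 1700 bp or more at 28.96% (27.1% to 30.9%) and 15.3% (13.3% to 17.5%). In all but the strongest of the 5 H3K27ac groups, control FLAG was more frequent at the members than at the class with H3K4me1. In the strongest it was called at 24.5% of members (22.9% to 26.1%) and 29.4% of that class (25.4% to 33.6%). In the weakest the shares were 17.5% (14.7% to 20.7%) and 13.0% (9.03% to 18.4%). The intervals overlapped in both of these groups. Counted from the weakest, they were apart in group 2, at 20.4% (18.2% to 22.8%) and 12.03% (8.78% to 16.3%). They were also apart in group 4, at 22.15% (20.5% to 23.9%) and 13.8% (10.45% to 17.9%). H2A.Z was called with overexpression at 60.3% of members, against 37.4% (35.1% to 39.8%) of the class with H3K4me1, 13.3% (12.4% to 14.2%) of the class without H2A.Z and 0.167% (0.0811% to 0.345%) of the class with none of the 3. Both of the last classes were chosen to lack wide control H2A.Z. The class without H2A.Z was not free of it, since 62.9% of its regions held a control H2A.Z peak under 500 bp, with a median of 7 reads.

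**Figure D5:**
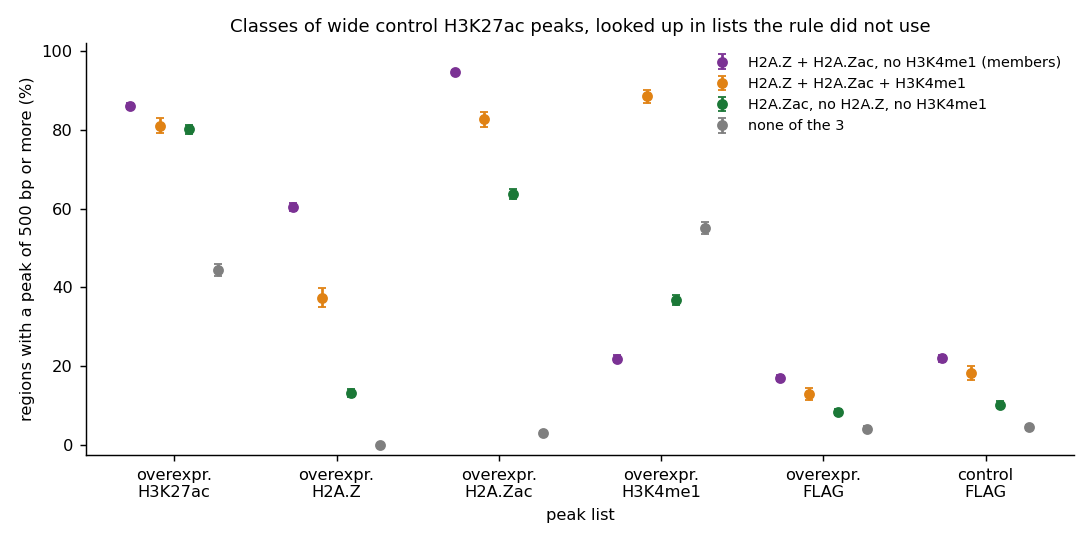
Share of regions with a peak of 500 bp or more in the 6 lists that the rule did not use, for the members and 3 other classes of wide control H3K27ac peaks, with Wilson 95% intervals. The members had the highest shares for overexpression H3K27ac, H2A.Z, H2A.Zac and FLAG and for control FLAG, and the lowest for overexpression H3K4me1, at 21.96%. The classes were defined by control H2A.Z, H2A.Zac and H3K4me1, so the order for these 3 marks is favoured by the choice. FLAG in either group was not part of the rule. For overexpression H3K27ac the order was not kept in every group of like H3K27ac strength. In the middle group it was called at 83.25% of members and 85.1% of the class without H2A.Z.

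Taking the marks together, 3605 members (42.2%, 41.1% to 43.2%) met all 4 conditions in the overexpression lists, against 16.5% of all wide control H3K27ac peaks. In the control the members met them by the rule and were 33.7% of those peaks. The missing H2A.Z call alone accounted for 2001 members (23.4%), and an H3K4me1 call with nothing missing for 872 (10.2%). H3K27ac alone was missing at 493 members (5.77%) and H2A.Zac alone at 30 (0.351%). H2A.Z was missing and H3K4me1 called at 572 (6.69%), and 82 members (0.959%) had no wide peak of any of the 4 marks. The mirror image was tighter. Of the 4471 regions that the same rule chose from the overexpression lists, 3674 (82.2%, 81.02% to 83.3%) met all 4 conditions in the control, 499 (11.2%) missed only H2A.Z and 73 (1.63%) only had H3K4me1 added. The control lists had more wide H2A.Z peaks (31392 against 13014) and fewer wide H3K4me1 peaks (31560 against 74109). Their part in this difference was not tested, and the share over all wide overexpression H3K27ac peaks was not taken. The 2 sets shared regions that made up 42.5% of the members and 81.4% of the set chosen from the overexpression lists. Where they overlapped, the H2A.Z height ratio of overexpression over control had a median of 0.929 over 3617 members.

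The H2A.Z call varied less with H3K27ac strength than the H3K27ac call did. From the weakest to the strongest of the 5 H3K27ac groups, overexpression H2A.Z was called at 50.9%, 60.5%, 60.6%, 60.3% and 62.3% of members. H3K27ac itself was called with overexpression at 34.7% (31.04% to 38.5%) of members in the weakest group and 99.8% (99.5% to 99.9%) in the strongest. The class without H2A.Z had 33.95% and 99.7%, so this rise was not particular to the members. At widths of 500 to 800 bp, 59.4% of members had overexpression H3K27ac, and at 1700 bp or more 99.9% did. In the class without H2A.Z the shares at these widths were 54.96% and 99.5%.

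The members were spread over all 23 chromosomes with a median gap of 114.7 kb. The mean density was 2.81 members per Mb. Chromosome 19, the most gene-dense, had the highest at 8.88 per Mb, followed by chromosome 17 at 5.47, and chromosome X the lowest at 0.663. The share of wide H3K27ac peaks that were members ran from 19.0% on X (15.9% to 22.5%) to 43.2% on 19 (40.5% to 46.05%). By cytogenetic stain, the density was 3.91 per Mb in unstained bands, 4.65 in the palest stained bands and 1.21 in the darkest, which are gene-poor. The share of wide H3K27ac peaks that were members varied far less over these bands, at 34.7%, 35.5% and 30.7%, against 33.7% over all, so the density mostly followed that of wide H3K27ac peaks. The fullest bands were 19p13.2 with 75 members, 19p13.3 with 70, 16p13.3 with 64, 12q24.31 with 55 and 1q21.3 with 52. The last of these, the band of VPS72 itself, had the highest density of the 5, at 11.1 per Mb. Overexpression H2A.Z was called at between 40.0% of the 80 members on chromosome 21 and 73.3% of the 243 on chromosome 20, against 60.3% of all members. Overexpression H3K4me1 ran from 12.5% of the 168 members on chromosome 13 to 37.04% on chromosome 20, against 21.96% of all members. These are the extremes of 23 chromosomes, and the same shares over all wide H3K27ac peaks of a chromosome were not taken.

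Some members lay side by side under a single peak of acetylated H2A.Z. There were 261 pairs of neighbouring members under 500 bp apart, with a median gap of 208 bp in which H3K27ac dropped out. A single overexpression H2A.Zac peak spanned the gap in 92 pairs and a single control H2A.Zac peak in 186. For H2A.Z the numbers were 35 pairs with overexpression and 101 in the control. Summits seldom fell in these gaps, with 6 overexpression and 1 control H2A.Zac summits and 5 overexpression and 7 control H2A.Z summits. In 63 pairs a single overexpression H3K27ac peak covered both members.

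The positions that follow are in the hg19 build. The strongest H3K27ac member by control q was chr14:31675120-31678196 in 14q12, 3077 bp wide. Its H3K27ac summit had 216 reads with overexpression (101 times the genome average) and 255 in the control (136 times). H2A.Zac had 87 reads with overexpression and 111 in the control, and H2A.Z had 32 and 29. All 3 of these marks were thus present in both groups, with H2A.Z at nearly the same reads. A 477 bp overexpression H3K4me1 peak of 33 reads lay on it, with no control peak, and FLAG had 12 reads with overexpression and 23 in the control. The region lies in a segment with a local background over 2 times the genome average. The other members among the 5 strongest were in 22q12.2, 1p36.13, Xq23 and 7p22.3, and all 5 had lower H3K27ac heights with overexpression, at 62.0 to 101 times the genome average, against 82.8 to 138 times in the control.

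The widest member was chr7:5458409-5470374 in 7p22.1, 11966 bp in the control and under a 10392 bp H3K27ac peak with overexpression. It had 99 H3K27ac reads at the summit with overexpression and 121 in the control, 19 and 17 for H2A.Z, 33 and 38 for H2A.Zac, and 11 and 13 for FLAG. The H2A.Zac peak was 688 bp wide in overexpression cells and 6283 bp wide in control cells, with summits 14.8 and 19.6 times the genome average. All 3 of the widest members, the others in 14q21.1 and 18p11.31, had a wide overexpression H3K4me1 peak (747, 653 and 2483 bp) over a narrow control one (366, 338 and 301 bp).

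The 5 members with the highest control FLAG all lay in 1q42.13, the band of the 5S ribosomal RNA gene repeats, between positions 228746041 and 228782740, in segments with a local background over 2 times the genome average. The first, chr1:228746041-228746850, had 254 FLAG reads with overexpression (771 times the genome average) and 341 in the control (747 times). Its H3K27ac was weak, with 38 reads and a deposited fold of 1.95 with overexpression and 50 reads and a fold of 3.02 in the control. The other members there had 105 to 120 FLAG reads with overexpression and 129 to 186 in the control, and the same FLAG peak covers 2 of them. These members stood far from the rest of the class, whose median FLAG summits held 4 and 6 reads. Without the 21 megabase segments of high background, which held 88 members, control FLAG was called at 21.99% of the remaining 8460 members, against 22.1% of all members.

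The strongest gain of H3K4me1 was at chr11:66823584-66824823 in 11q13.2, also in a segment of high background. A 4018 bp overexpression peak with 100 reads (48.6 times the genome average) overlapped it, and no control H3K4me1 peak of any width did. The other 4 marks had peaks in both groups, with 55 reads with overexpression and 64 in the control for H3K27ac. H2A.Z had 54 and 56 reads, H2A.Zac 133 and 162, and FLAG 16 and 22. As multiples of the genome average, the heights were 25.6 and 34.2 for H3K27ac and 32.9 and 40.1 for H2A.Z. For H2A.Zac they were 59.5 and 83.5, and for FLAG 48.55 and 48.18. The second, chr4:1035206-1035726 in 4p16.3, had 34 H3K4me1 reads in a 4847 bp overexpression peak and 9 reads in a 468 bp control peak. Its H3K27ac was at 7 reads with overexpression and 10 in the control, and H2A.Z at 21 and 13. The 5 strongest gains had overexpression H3K4me1 peaks of 3953 to 5679 bp, each wider than the member it overlapped, and in 3 of the 5 no wide H3K27ac peak was called with overexpression.

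Among members with no deposited overexpression H2A.Z peak of any width, chr6:83778192-83778865 in 6q14.1 had the highest control H2A.Z by q, with 20 reads (14.3 times the genome average). H2A.Zac also had no overexpression peak there, with 35 reads in the control, while H3K27ac had 13 reads with overexpression and 9 in the control. It was the exception among the 5. The other members, in 19p13.3, 15q21.1, 12q13.11 and 1p35.3, had overexpression H2A.Zac of 19 to 61 reads and control H2A.Zac of 32 to 81 reads. At chr19:70115-70952, the second, H2A.Zac had 61 reads with overexpression and 81 in the control, and H3K27ac had 41 and 55.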

How the data were processed

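Chromatin immunoprecipitation was sequenced in 12 libraries. MACS2 called the peaks of each library, per the submitters' processing notes, which list BWA, Trimmomatic and FastQC too (no versions) and 2 builds, hg19 and hg38. No peak on the 23 chromosomes ran past an hg19 length, so hg19 coordinates are given, 1-based. Thresholds and the calling control: not given in the sources used here. Peak names of the control H3K4me1 list spell H3k3me1, and its title was followed. The deposited fold of a peak is a ratio of summit to local background by the authors' peak caller. The deposited −log10 p and −log10 q are the authors' values at the summit. The summit offset was used as a position. Gene names and sequences were not used, because the annotation given was of another build.

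The members and lists were chosen with earlier results of these data known. Reads per summit were recovered from fold and −log10 p under the Poisson model of MACS2 (tolerance 0.0005 on −log10 p), which gave a whole number for 100% of peaks in all 10 ChIP lists. More than 1 whole number was within the tolerance for 7.85% of control H2A.Zac peaks, the most of any list, and 3.1% of control FLAG peaks. The closest was taken. Recovery and overlap were checked on simulated data. The genome average is the most frequent lowest background of a list. Calls needed 500 bp and 1 bp of overlap, and the highest summit was taken where several peaks overlapped. Regions named are the 5 members with the highest control H3K27ac q (as −log10), the 3 widest, the 5 with the highest control FLAG, the 5 with the highest overexpression H3K4me1, the 5 with the highest control H2A.Z and no overexpression peak, and 3 on each side of the width limit. No test was run between groups with 1 library each. Alternatives were a 300 bp width, a q of 0.05 in place of width, coverage of 50% of the H3K27ac peak, no control H3K4me1 of any width, and leaving out 1 Mb segments of high background. The software was scipy 1.17.1, pandas 2.3.3, numpy 2.4.6 and matplotlib 3.10.9 under Python 3.11.15. GenomeInfoDb 1.38.1 gave chromosome lengths and circlize 0.4.16 the bands.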

Additional observations from a re-analysis of the deposited data

How the results depend on the processing

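Of 40 values under 5 alternatives, 18 stayed within the counting interval or 1.5 times the number given in the report, 22 moved and 0 reversed. With a 300 bp width, control FLAG was called at 32.8% of members, overexpression FLAG at 26.6%, H2A.Z at 72.5%, H2A.Zac at 95.7% and H3K4me1 at 26.1%, and 48.9% met the same rule. With a q of 0.05 in place of width, control FLAG was at 25.5%, H2A.Zac at 96.6%, H3K4me1 at 24.2% and the same rule at 40.7%. When 50% of the H3K27ac peak had to be covered, which is a stricter overlap for every list, control FLAG was at 12.4%, overexpression FLAG at 8.28%, H3K27ac at 79.9%, H2A.Z at 50.9%, H2A.Zac at 91.9%, H3K4me1 at 5.98% and the same rule at 39.2%. Without members holding any control H3K4me1 peak, H3K27ac was at 86.8%, H2A.Z at 61.5%, H2A.Zac at 95.4%, H3K4me1 at 15.4% and the same rule at 45.9%. Leaving out segments of high background moved none of the 8 values. The cause of the other moves was not tested. Apart from those given above for FLAG and H3K4me1, shares over all H3K27ac peaks were not taken under these alternatives. Whether the moves were particular to the members was therefore not tested. The number of members ran from 6861 to 11679. No paired analysis was possible because each group had 1 library per antibody. Depth limits FLAG most, with median summits of 4 and 6 reads.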
